A study of Mus musculus with 40 samples.

Results

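The step from late pre-B cells to immature B cells was followed in mice whose marrow carries a missense change in ZIP7, by setting 5 mutant libraries of fraction E (FrE) against 5 mutant libraries of fraction D (FrD), paired by mouse. These 10 libraries are all of that kind among the 40 of the series. They were chosen by genotype, fraction letter and mouse number in the sample titles. RNA was counted after Smart-seq2 amplification of 100 sorted cells per library. CD45.1 hosts were lethally irradiated and reconstituted for 8 weeks with marrow of donors homozygous for P198A (P198A/P198A, made by CRISPR/Cas9) or of wild-type (WT) donors. Every group was gated as CD45.2+ and CD45.1-, that is, as donor cells, and as B220+ CD43- IgD-. FrD was IgM- (late pre-B) and FrE was IgM+ (immature). The mutant mice are numbers 4, 5, 8, 9 and 10, and the WT mice used beside them are 1, 2, 3, 6 and 7, with 5 libraries per fraction. No label read here states the ages of the mice or how many donors gave marrow. The titles abbreviate the mutant as KO, but the allele changes 1 residue, so the level of Slc39a7 RNA, which encodes ZIP7, does not check the genotype. Slc39a7 ran from 8.5 to 137.5 CPM (counts scaled to the library's endogenous total) in mutant FrD and from 27.6 to 142.5 in mutant FrE.

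A late pre-B cell has assembled an immunoglobulin heavy chain, has divided under signals of the pre-B cell receptor and of interleukin 7, and rearranges its light chain genes with the RAG recombinase while it leaves the cell cycle. A cell that makes a fitting light chain carries IgM on its surface, which defines the immature stage, and begins to express genes of the mature B cell such as MHC class II, the BAFF receptor, which carries a survival signal, and receptors for homing to lymphoid organs. ZIP7 is a zinc transporter that moves zinc from the endoplasmic reticulum and Golgi into the cytosol.

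The libraries held B-lineage RNA in both fractions. Cd79a, a signalling chain of the B cell receptor, ran from 2304 to 3364 CPM in FrD and from 4041 to 6976 in FrE. Total endogenous counts ran from 14499642 to 43372070 in FrD. In FrE they ran from 18920916 to 20678002 in 4 libraries, while that of mouse 9 held 42111 counts. In that library 7365 genes were detected, 87.9% of them with 1 to 9 counts, and 1 count was worth 23.7 CPM. Endogenous counts relative to ERCC spike-in counts, on the log2 scale, stood at 8.81 ± 0.34 in FrD and 8.41 ± 0.69 in FrE (SD, n = 5 each, exact two-sided paired permutation p = 0.25, adjusted over 3 measures 0.375). They were higher in FrE in 2 of 5 mice, and 5 pairs cannot give a p below 0.0625. The name of the second sequencing index differs between fractions in every mouse, so that the index and the fraction cannot be told apart. In these sorted pools, fewer cells with a transcript and less of it per cell cannot be told apart either.

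Markers of cells outside the B lineage did not stay level across the FrE libraries. The summed level of 22 granulocyte and monocyte markers, of which Lyz2, S100a8 and S100a9 were the most abundant, was 12298 to 23994 CPM in FrD. In FrE it was 1688 CPM in mouse 4, 75016 in mouse 5, 46.5 in mouse 8, 22441 in mouse 9 and 34.6 in mouse 10. Of the 22 markers, 20 or 21 had a count in each FrD library and 13 to 21 in each FrE library. Mice 5 and 9, whose FrE libraries were high, also carry another pair of second index names than mice 4, 8 and 10. Erythroid markers summed to 1094 to 7594 CPM in FrD and 306.8 to 7849 in FrE, with mouse 5 lowest in FrD and highest in FrE. Basophil, mast cell and eosinophil markers reached 7745 CPM in FrD of mouse 8 and 973.6 in FrE of mouse 9, and stood at most at 16.2 in FrE of the other mice. Megakaryocyte and platelet markers reached 854.9 CPM in FrE of mouse 9 alone and at most 9 in the other mutant libraries. None of the 21 granulocyte and monocyte markers tested, nor of the 11 erythroid ones, passed the test between fractions in edgeR. At an unadjusted p under 0.05 in that test were 3 and 2, while DESeq2 called 5 and 3. Of the 21, 20 lay below 0, with a median log2 fold change of -3.65. All 11 erythroid markers lay below 0, with a median of -3.05. Per mouse, the median log2 CPM difference of the 21 was -1.80, 2.85, -5.10, 1.80 and -5.60 in mice 4, 5, 8, 9 and 10. In mice 4, 8 and 10 alone, 4 of 11 granulocyte and monocyte markers were lower in FrE, with a median of -7.09, and 1 of 8 erythroid markers was lower. Without mouse 5, 1 of 19 granulocyte and monocyte markers and 3 of 9 erythroid markers were lower.

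**Figure D1:**
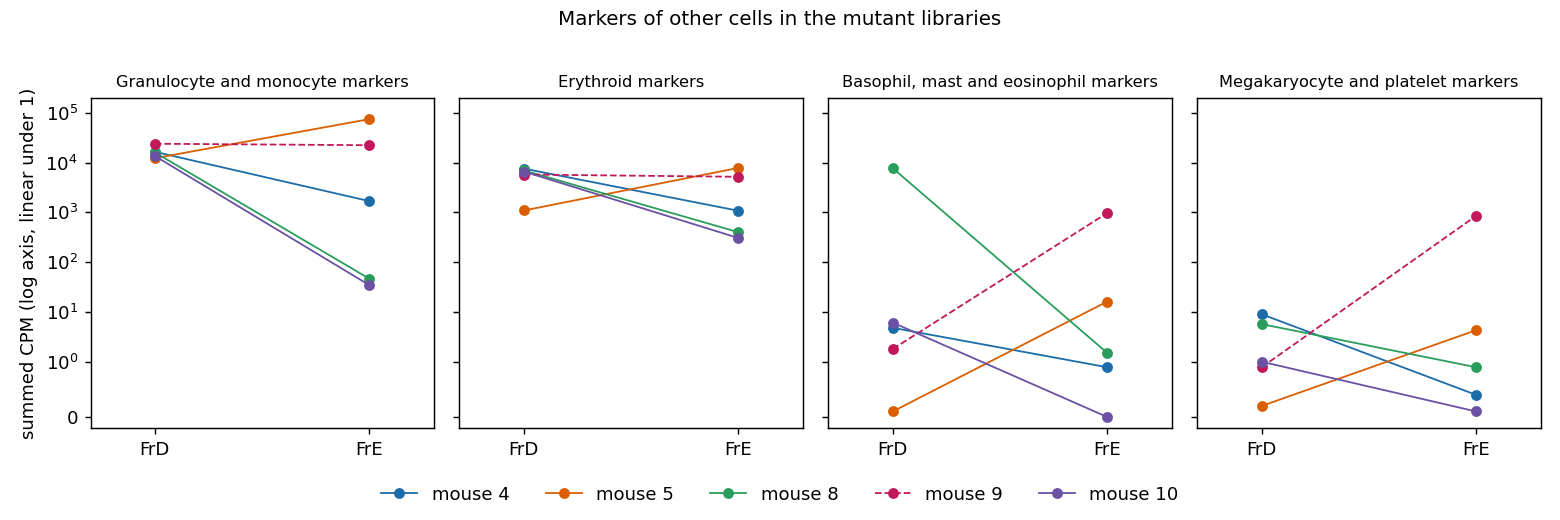
Summed CPM of markers of other cells in each mutant library, with FrD and FrE of 1 mouse joined by a line (log axis, linear under 1 CPM; the dashed line is mouse 9). Granulocyte and monocyte markers in FrE stood at 75016 CPM in mouse 5 and 22441 in mouse 9, and at 46.5 and 34.6 in mice 8 and 10.

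The mutant cells did change between the fractions. Of 10450 genes tested, 45 were higher in FrE (0.431%) and 74 were lower (0.708%), 119 in all (1.14%), at a Benjamini-Hochberg adjusted p under 0.05 in edgeR's quasi-likelihood test with the mouse as a block. Without the block the counts were 39 and 45. All 45 were higher in FrE in 5 of 5 mice, and 72 of the 74 were lower in 5 of 5. The CPM of the fractions did not overlap for 40 of the 45 and 44 of the 74. Over all genes tested, 1.36% lay without overlap higher in FrE and 1.96% lower. The 119 were picked by a test on these same pairs, so their shared direction and lack of overlap are no separate support. The genes that rose did so by a median log2 fold change of 1.88, and those that fell by 1.73, against a median of -0.08 over all genes tested. Without mouse 9, 28 genes were higher and 25 lower, and 45 of the 114 calls still tested passed. Leaving out mouse 4 gave 13 and 24, mouse 5 gave 53 and 136, mouse 8 gave 9 and 11, and mouse 10 gave 10 and 12. Mice 4, 8 and 10 alone gave 26 and 34. All calls that could be tested kept their direction under each of these settings, which reuse the same libraries. On counts simulated for this mutant step, the test recovered 11 of 100 genes changed by 1 on the log2 scale and 71 of 100 changed by 2. The changed genes were drawn only from the more abundant genes, so recovery among scarcer genes was not measured.

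**Figure D2:**
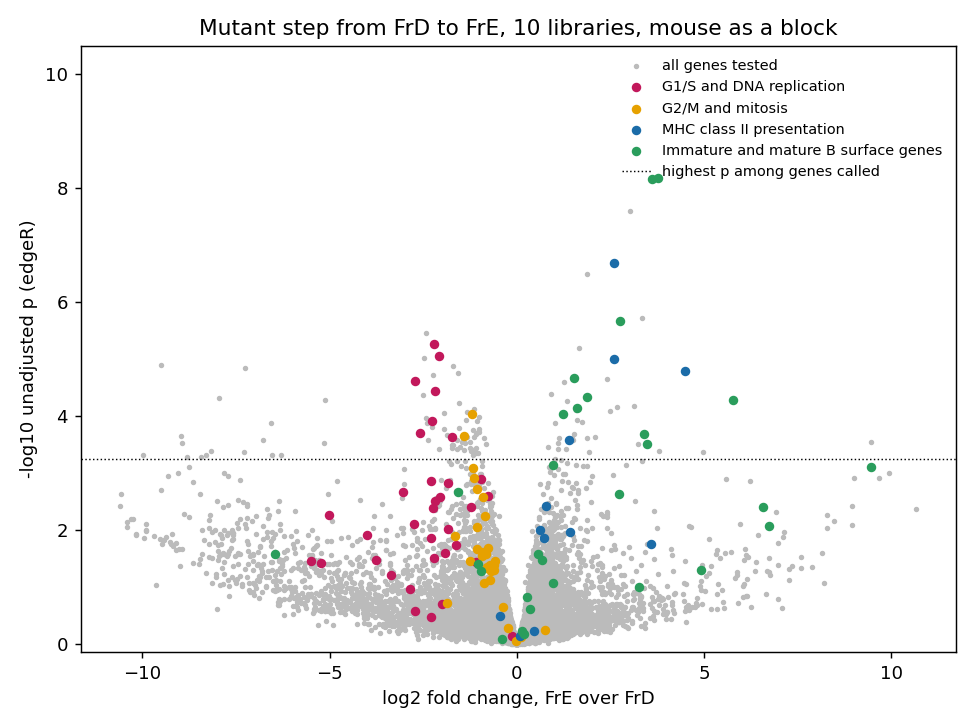
Log2 fold change from FrD to FrE in mutant cells (x axis) against -log10 of the unadjusted p (y axis), 1 point per gene tested, with 4 gene lists in colour. The 34 tested genes of the G1/S list all lie left of 0, and the immature and mature B surface genes that passed lie to the right.

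Surface genes of the immature and mature stages made up the largest listed group among the genes that rose. Of 29 members tested, 10 rose and none fell, while 0.431% of all genes tested rose and 0.708% fell. Of the 29, 24 lay above 0 and 5 below, with a median log2 fold change of 1.54 and a lowest of -6.45. Ltb, the membrane anchor of lymphotoxin (chr17:35194439-35196320, plus strand, mm10), stood at 35.3, 31.4, 29.3, 34.8 and 36 CPM in FrD of mice 4, 5, 8, 9 and 10, and at 522.6, 307.5, 552, 379.9 and 608 in FrE. The FrD libraries lay close together and every FrE library lay far above them, with mouse 5 lowest. The log2 fold change was 3.77 ± 0.24 (SE), 13.6-fold, with an adjusted p of 3.56e-05 in edgeR. Fcmr, a receptor for the constant part of IgM (chr1:130865669-130880791, plus strand), was at 118.5, 125.7, 74.5, 111.4 and 110.8 CPM in FrD and at 1561, 842.3, 1335, 1401 and 1626 in FrE. Again no library overlapped and mouse 5 rose least (3.60 ± 0.23, edgeR adjusted p = 3.56e-05). Ly6d, a surface protein that marks commitment to the B lineage, rose from 810.4 to 4943 CPM on average (log2 fold change 2.75 ± 0.29, adjusted p = 0.0032).

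Other surface genes rose by smaller or less certain amounts. Cd22, an inhibitory coreceptor of the B cell receptor, was between 57.8 and 145.5 CPM in FrD and between 150.5 and 523.1 in FrE, and Cd37, a tetraspanin, between 456 and 497 and between 659.6 and 1484. Cd55, which protects cells from complement, rose from 47.6 to 178 CPM on average. Btla, an inhibitory receptor, rose from 33.6 to 313 CPM, and Fcrl1, a receptor of the Fc receptor-like family, from 22.9 to 170. Ms4a1, which encodes CD20, did not pass with all 5 mice (adjusted p = 0.0602 in edgeR), though its levels were far apart. It stood at 1.6, 2.3, 20.8, 0.4 and 5.6 CPM in FrD and at 2121, 1463, 2408, 3182 and 2028 in FrE of mice 4, 5, 8, 9 and 10. Without mouse 9 its adjusted p was 0.0198. Cd40, the receptor for T cell help, was at 2.8 to 45.6 CPM in FrD and 83.5 to 228.6 in FrE (adjusted p = 0.117). Fcer2a, which encodes CD23, ran from 0 to 0.1 CPM in FrD and from 0.7 to 47.5 in FrE (adjusted p = 0.226). The number that rose was 4 without mouse 4, 4 without mouse 8, 3 without mouse 10 and 4 with spike-in scaling, and none fell there. Without mouse 5, 10 rose and 2 fell. DESeq2 called 15 higher and 2 lower, and voom with quality weights 15 and 1.

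Receptors that place B cells in tissue and keep them alive were among the genes that rose. Tnfrsf13c, the BAFF receptor (chr15:82221743-82224369, minus strand), stood at 71.2, 41, 55, 72.3 and 51.7 CPM in FrD and at 482.9, 258.7, 524.6, 593.7 and 583.3 in FrE. All FrE libraries were above all FrD libraries (log2 fold change 3.01 ± 0.22, adjusted p = 8.91e-05). It was the only member to pass among 14 tested of the list of BAFF receptor and TNF family survival genes, whose median was 0.57. Tnfrsf13b, the related receptor TACI, was at 287 CPM in FrD and 485 in FrE (adjusted p = 0.227). Of the 16 homing and adhesion receptors tested, 3 rose and 10 lay below 0, with a median of -0.39. The share that rose among all genes tested was 0.431%. The number that rose was 1 without mouse 8 or without mouse 9 and 0 in edgeR without mouse 4 or without mouse 10. Cxcr5, the receptor for the follicle chemokine CXCL13, was at 0.1 to 22 CPM in FrD and at 30.2 to 169.1 in FrE, without overlap (5.76 ± 0.91, adjusted p = 0.0182). S1pr1, which guides exit from marrow and lymphoid organs, ran from 52 to 97 and from 166.2 to 249.6 CPM. S1pr3, another sphingosine 1-phosphate receptor, was at no more than 0.1 CPM in FrD and between 7.5 and 30.3 in FrE, with 4 counts in all of FrD (adjusted p = 0.036). Il2rg, the shared chain of the receptors for interleukins 2, 4, 7 and others, rose from 146.8 to 378.3 CPM (1.34 ± 0.21, adjusted p = 0.0185).

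Some MHC class II genes rose, among them the abundant invariant chain. Of 12 genes of class II presentation tested, 4 rose and none fell, while 0.431% of all genes tested rose. A fold change above 0 was found for 11 of the 12, with a median log2 fold change of 1.09. Cd74, the invariant chain that escorts class II molecules (chr18:60803848-60812652, plus strand), was at 787.5, 1085, 516.8, 1217 and 441.8 CPM in FrD and at 5456, 3659, 3795, 6055 and 4504 in FrE. Every FrE library lay well above every FrD library. Its log2 fold change was 2.58 ± 0.23 (adjusted p = 0.000533). H2-DMb2, a chain of the peptide-loading factor H2-M, was at 9.4, 35, 9.7, 2.4 and 18.9 CPM in FrD and at 278.2, 157.1, 318.2, 285 and 290.5 in FrE (4.49 ± 0.58, adjusted p = 0.01). Ifi30, a thiol reductase of antigen processing, rose from 259.4 to 1399 CPM (2.60 ± 0.33, adjusted p = 0.00806). H2-Aa, the class II alpha chain, overlapped between the fractions, with 148.8 to 970.4 CPM in FrD and 769 to 1686 in FrE, but was higher in 5 of 5 mice (2.64-fold, adjusted p = 0.0354). H2-Ab1, its beta chain, was at 791 and 1356 CPM (adjusted p = 0.151). Ciita, the coactivator of class II genes, was at 16.2 and 20.6 CPM (adjusted p = 0.923). The number that passed was 2 without mouse 4 and 1 without mouse 8 or without mouse 10.

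The receptor chains Cd79a and Cd79b rose by 1.87-fold and 1.79-fold. Cd79a went from 2998 to 5808 CPM on average (0.90 ± 0.14, adjusted p = 0.017) and Cd79b from 3923 to 7095 (0.84 ± 0.17, adjusted p = 0.0393), and neither overlapped between fractions. Among 25 genes of B cell receptor signalling, Bank1, a scaffold protein, was the only member that passed, from 17.2 to 145 CPM (3.22 ± 0.62, adjusted p = 0.0368). Of 30 transcription factors of the B lineage, Irf8, Spib and Bcl11a rose, by 1.09, 1.10 and 1.93 on the log2 scale. Among all genes tested 0.431% rose. The 3 overlapped between fractions in CPM and were higher in FrE in 5 of 5 mice. Spib is also a marker of plasmacytoid dendritic cells, whose 11 markers summed to 923.3 to 2544 CPM in FrD and 839.6 to 4305 in FrE, with mouse 5 highest. The part of such cells in the rise of Spib was not tested. Other genes of low p that rose were Cd52, a small glycoprotein of lymphocytes (1.88 ± 0.17, adjusted p = 0.000657), Scd1, a fatty acid desaturase (3.33 ± 0.37, adjusted p = 0.0032), Rnase6, a secreted ribonuclease (1.66 ± 0.21), and Ctso, a lysosomal protease (2.41 ± 0.35). Btg1, which restrains proliferation, rose from 821.2 to 1825 CPM (1.12 ± 0.21, adjusted p = 0.035). The naming rule given with the processing picked 56 genes that passed. Of these, 6 passed under every one of 16 other settings, among which the fit without mouse 9 stands repeated. The 6 were Ltb, Fcmr, Tnfrsf13c, Cd74, Scd1 and Ly6d. Some genes described here that passed, such as Btla, Fcrl1 and Orc6, are outside the 56.

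**Figure D3:**
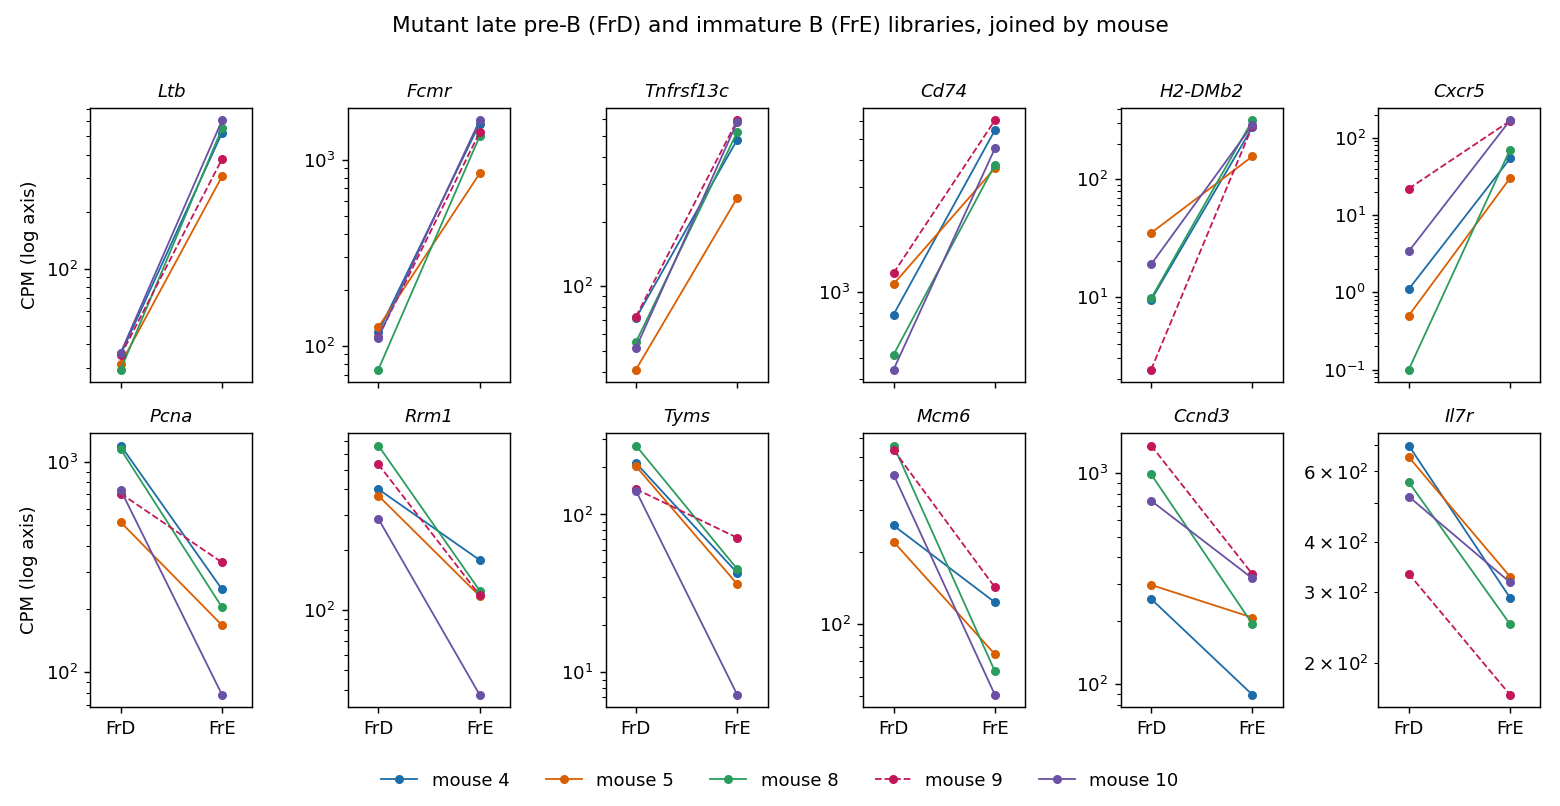
CPM (log axis) of 6 genes that rose and 6 that fell in mutant FrD and FrE libraries, 1 line per mouse, dashed for mouse 9 (42111 counts in FrE). For Ltb the FrD libraries lie between 29.3 and 36 CPM and the FrE libraries between 307.5 and 608, while Pcna runs from 516.8 to 1197 in FrD and from 78 to 332.5 in FrE.

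Some genes of DNA replication fell, and the listed ones lay below 0. All 34 tested members of the list of G1/S and DNA replication genes had a lower fitted level in FrE. Of these 7 passed and none rose, with a median log2 fold change of -2.23, while 0.708% of all genes tested fell. Pcna, the sliding clamp of the replication fork (chr2:132249162-132253314, minus strand), stood at 1197, 516.8, 1148, 707.1 and 734.6 CPM in FrD and at 247.5, 167.1, 203.3, 332.5 and 78 in FrE of mice 4, 5, 8, 9 and 10. No library overlapped, and mouse 10 was lowest in FrE (-2.21 ± 0.27, adjusted p = 0.0063). Rrm1, the large subunit of ribonucleotide reductase, was at 285.8 to 662.8 CPM in FrD and 37.8 to 177.8 in FrE (-2.08 ± 0.27, adjusted p = 0.00806). Tyms, which makes thymidylate, was at 141.6 to 273.6 and 7.2 to 71.2 CPM (-2.71 ± 0.39, adjusted p = 0.0116). Mcm6, of the replicative helicase (chr1:128331590-128359664, minus strand), was at 221 to 557.9 and 50.6 to 142.5 CPM (-2.19 ± 0.33, adjusted p = 0.016), also without overlap. Mcm3, another subunit of that helicase, Rpa2, which binds single-stranded DNA, and Uhrf1, which keeps DNA methylation through replication, fell by 2.60, 1.74 and 2.26 on the log2 scale. Mcm3 and Rpa2 overlapped between fractions, and Uhrf1 did not.

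Further genes that fell, described here because they passed, act in replication, nucleotide supply or the cell cycle. Gmnn, which blocks a second round of origin licensing, was at 400.5, 395.1, 328.9, 206.7 and 286.7 CPM in FrD and at 100.4, 117.9, 60.4, 23.7 and 30 in FrE, and had the lowest p of the genes that fell (-2.41 ± 0.28, adjusted p = 0.00447). The 23.7 CPM of mouse 9 is a single count. Dut, which removes dUTP, fell by 2.47 ± 0.32 (adjusted p = 0.00806) and Paics, of purine synthesis, by 1.56 ± 0.22 (adjusted p = 0.0101). Orc6, Mcm10, Rfc5 and Fen1, picked out after their values were seen, fell too, with means of 194, 49.3, 175 and 127 CPM in FrD and of 39.9, 1.32, 50.7 and 52.6 in FrE. Slc16a1, a lactate and pyruvate transporter, was at 303.1 to 362.6 CPM in FrD and 68.6 to 166.2 in FrE (-1.70 ± 0.23, adjusted p = 0.00927). Nmral1, a redox sensor protein, fell from 247.7 to 52.9 CPM. The D cyclin Ccnd3 and its kinase partner Cdk4 fell by 1.54 and 1.09 on the log2 scale (adjusted p = 0.031 and 0.0345), and both overlapped between fractions. Ccnd2, another D cyclin, was at 145 CPM in FrD and 320 in FrE (adjusted p = 0.501).

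The fall of the G1/S list differed in size between mice. Its median log2 CPM difference was -1.71 in mouse 4, -1.07 in mouse 5, -2.78 in mouse 8, -1.05 in mouse 9 and -3.64 in mouse 10. The shallowest falls were thus in mice 5 and 9, whose FrE libraries were high in granulocyte and monocyte markers and which carry the other set of index names; the part of either in this spread was not tested. In mice 4, 8 and 10 alone the median was -2.95 and 7 members passed. The 7 became 4 without mouse 4, 15 without mouse 5, 2 without mouse 8, 5 without mouse 9 and 4 without mouse 10. Scaling by the spike-ins, which lowers the median of all genes from -0.08 to -0.51, gave a median of -2.62 and 3 members that passed.

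Few mitotic genes passed. Of 30 G2/M genes tested, 2 fell, none rose and 28 lay below 0, with a median of -0.83. The share that fell among all genes tested was 0.708%. Top2a, the topoisomerase that untangles chromosomes, was at 711.7, 1244, 576, 478.4 and 491.9 CPM in FrD and at 323.7, 417.4, 401.2, 237.5 and 161.9 in FrE, without overlap (-1.21 ± 0.20, adjusted p = 0.0232). Racgap1, of the cytokinesis machinery, fell by 1.41 ± 0.26 (adjusted p = 0.035). In edgeR 0 of the 30 passed without mouse 4, without mouse 9 or without mouse 10, and 4 without mouse 5. Mki67, the gene of the Ki-67 antigen, had 624 CPM in FrD and 320 in FrE (adjusted p = 0.0798). The most abundant of the genes that fell included Tubb5, a tubulin, from 4379 to 2084 CPM, the histone genes H2afv and Hist1h2ao, and Hmgb2, a chromatin protein that also assists RAG cutting, from 1298 to 667.2. Hist1h2ao has near-identical copies, so its counts are uncertain. Ucp2, a mitochondrial carrier, and Tifa, an adaptor of NF-kB signalling, fell by 0.89 and 0.82 on the log2 scale.

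**Figure D4:**
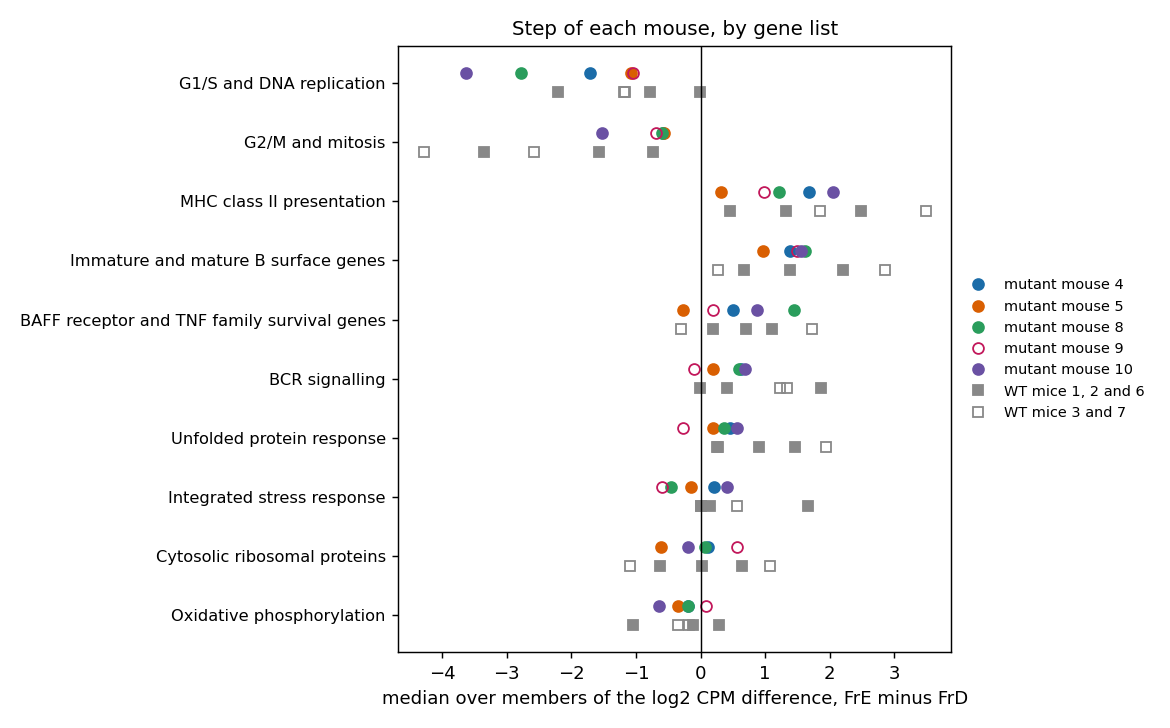
Median over the members of each list of the log2 CPM difference between FrE and FrD (x axis), 1 point per mouse, circles for mutant and squares for WT mice, open for pairs that hold a library of low complexity (mutant mouse 9, WT mice 3 and 7). In mutants the G1/S list runs from -3.64 to -1.05 and the G2/M list from -1.53 to -0.57.

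Promoters of these groups were read as RefSeq gives them for GRCm38.p6, the build of mm10, over the 250 bases before the annotated start. The letters of the E2F motif, whose factors drive replication genes, were searched on both strands as TTTCCCGC, TTTGGCGC, TTTGCCGC and TTTCGCGC. They stood in 1.92% of all 27025 promoters and in 3.7% of the 8317 promoters matched to genes tested. Of the G1/S list 28 tested members had a promoter in the table and 9 of these held the letters (32.1%), but among its 7 members that passed only Mcm6 did. Of the 62 promoters of genes that fell, 5 held them. The inverted CCAAT letters GATTGG, part of the Y box of class II promoters, stood in 15.1% of all promoters, in 20.9% of those of genes tested, in 6 of 9 class II members and also in 15 of the 28 G1/S members. Mcm6 and Mcm5 are shown for their E2F letters, Pcna as a gene that fell without them in this window, and H2-Aa for its Y box letters. The RefSeq start of Pcna lies 134 bases inside the gene as GENCODE gives it, so part of its window overlaps that gene. In Mcm6 and Mcm5 the starts differ by 41 and 60 bases. Capitals mark the E2F letters in Mcm6 and Mcm5 and GATTGG in H2-Aa; GATTGG also stands, in lower case, in Mcm6 and Pcna, and as its reverse complement in Mcm5. Mcm6 has 3 E2F matches and Mcm5 has 2, of which a pair overlaps in each. Mcm6 lies at chr1:128359706-128359955, minus strand, Mcm5 at chr8:75109259-75109508, plus strand, Pcna at chr2:132253181-132253430, minus strand, and H2-Aa at chr17:34287824-34288073, minus strand. Mcm5 itself did not pass (238 CPM in FrD, 48.1 in FrE, adjusted p = 0.109).
Mcm6: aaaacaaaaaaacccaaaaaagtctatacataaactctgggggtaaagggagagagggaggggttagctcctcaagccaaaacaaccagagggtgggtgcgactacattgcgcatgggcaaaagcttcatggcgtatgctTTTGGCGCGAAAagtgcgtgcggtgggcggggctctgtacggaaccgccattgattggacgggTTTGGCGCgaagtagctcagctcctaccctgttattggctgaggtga
Mcm5: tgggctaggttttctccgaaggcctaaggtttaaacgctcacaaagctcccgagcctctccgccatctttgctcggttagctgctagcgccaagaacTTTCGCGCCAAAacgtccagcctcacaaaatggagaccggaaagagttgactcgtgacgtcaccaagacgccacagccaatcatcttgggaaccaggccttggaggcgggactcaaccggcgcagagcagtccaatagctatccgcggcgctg
Pcna: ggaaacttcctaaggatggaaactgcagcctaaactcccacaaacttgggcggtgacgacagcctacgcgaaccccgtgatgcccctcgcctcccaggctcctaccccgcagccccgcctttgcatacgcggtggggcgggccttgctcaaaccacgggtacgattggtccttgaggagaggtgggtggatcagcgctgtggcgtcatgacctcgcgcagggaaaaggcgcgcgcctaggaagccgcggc
H2-Aa: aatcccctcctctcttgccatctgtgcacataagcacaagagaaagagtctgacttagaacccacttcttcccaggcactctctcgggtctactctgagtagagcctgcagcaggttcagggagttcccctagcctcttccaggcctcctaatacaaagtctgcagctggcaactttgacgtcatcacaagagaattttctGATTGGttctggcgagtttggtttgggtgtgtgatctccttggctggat

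Genes of the pre-B stage gave a mixed picture. Il7r, the interleukin 7 receptor alpha chain (chr15:9505788-9530176, minus strand), stood at 696.6, 651.9, 564.3, 333.4 and 519.5 CPM in FrD and at 290.2, 327.8, 249.4, 166.2 and 317.2 in FrE. Every FrE value lay below every FrD value, though FrD of mouse 9 lay close to the highest in FrE (fold change -1.05 ± 0.18 on the log2 scale, adjusted p = 0.0268). Of 16 genes of V(D)J recombination tested, Xrcc6, which encodes Ku70 of the end-joining machinery, and Hmgb2 fell, by 1.01 and 1.08 on the log2 scale. Among all genes tested 0.708% fell. Rag1, the catalytic chain of the RAG recombinase (chr2:101638282-101649501, minus strand), stood at 78.7, 191.3, 107.8, 122.8 and 228 CPM in FrD and at 65.7, 74.9, 42, 71.2 and 128.4 in FrE. It was lower in 5 of 5 mice, the fractions overlapped, and it did not pass (-0.95 ± 0.28, adjusted p = 0.184). Rag2, its partner (chr2:101624718-101632529, plus strand), was at 81.4 to 269.4 CPM in FrD and 71.2 to 176.2 in FrE (-0.50 ± 0.27, adjusted p = 0.561). The surrogate light chain gene Igll1 ranged from 2.5 CPM in mouse 5 to 1452 in mouse 10 in FrD and from 15.3 to 403.7 in FrE (adjusted p = 0.922), so that it did not separate the gates. Vpreb1, its partner, ran from 11.8 to 1099 and from 1.7 to 522.4 CPM (adjusted p = 0.92), and Vpreb3 from 2208 to 5282 and from 3301 to 5702 (adjusted p = 0.642). Among the genes of the gates, Ptprc, which encodes CD45 and B220, was at 310.5 to 532.3 and 423.5 to 761.7 CPM, and Spn, which encodes CD43, at 14.5 to 43.1 and 2.4 to 71.2. The immunoglobulin constant genes, which include those for IgM and IgD, are not analysed here.

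Among stress genes the number of calls was near the 1.14% of all genes tested, so that it says little about them. Of 30 genes of the unfolded protein response, Txndc5, a disulfide isomerase of the endoplasmic reticulum, was the only member that passed, from 139.6 to 449.5 CPM (1.88 ± 0.36, adjusted p = 0.035). Txndc5 is also a plasma cell marker. The 10 plasma cell markers summed to 1903 to 2619 CPM in FrD and 2510 to 3586 in FrE, highest in mouse 9, where Jchain, the joining chain of secreted IgM, stood at 1187 CPM against at most 15.5 in the other libraries. The part of such cells in the rise of Txndc5 was not tested. The list's median was 0.33, or -0.06 with spike-in scaling. Xbp1, a transcription factor of that response, was at 478 and 719 CPM (adjusted p = 0.568). None of 21 genes of the integrated stress response, of 17 zinc transporters and metallothioneins, of 24 apoptosis and p53 genes or of 26 interferon genes passed in edgeR, with 3, 1, 2 and 4 at an unadjusted p under 0.05, while DESeq2 called 3, 0, 2 and 3. Their medians were 0.11, 0.05, 0.15 and 0.23, and below 0 with spike-in scaling. None of 81 ribosomal protein genes passed in edgeR, with a median of -0.06, 2 at an unadjusted p under 0.05 and 1 called by DESeq2. Of 79 oxidative phosphorylation genes none passed in edgeR, 14 had an unadjusted p under 0.05 and DESeq2 called 3, while 70 lay below 0, with a median of -0.32.

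Part of these calls did not pass when both libraries of mouse 9 were left out. Of the 56 genes picked by the naming rule that passed, 29 passed without mouse 9 and 26 did not, all with the same direction. Among those that rose, the adjusted p without mouse 9 was 0.0567 for S1pr1 and Spib, 0.0587 for Cd37, 0.0635 for Btg1, 0.0859 for Irf8 and 0.112 for S1pr3. It was 0.113 for H2-Aa and Bank1, 0.122 for Cd79b, 0.134 for Txndc5 and 0.148 for Bcl11a. Among the genes of replication and division it was 0.0575 for Tubb5, 0.0635 for H2afv, 0.0712 for Mcm6, 0.0828 for Top2a and Hist1h2ao, 0.0947 for Cdk4, 0.102 for Racgap1 and Rpa2, 0.111 for Ccnd3 and 0.113 for Hmgb2. For the others it was 0.065 for Il7r, 0.075 for Xrcc6, 0.0963 for Tifa, 0.111 for Ucp2 and 0.112 for Klrb1c. Leaving out mouse 4, 8 or 10, whose libraries are deep, ended more of the 56 calls, 34, 36 and 38, and leaving out mouse 5 ended 3.

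Some genes that fell are known from cells other than B cells. Klrb1c and Klrk1, receptors of natural killer cells, stood at 2.7 to 29.2 and 0 to 50.9 CPM in FrD and had 1 and 9 counts in all of FrE. Natural killer markers as a list of 11 summed to 8.6 to 466.1 CPM in FrD and 3.4 to 436.2 in FrE, where mouse 5 was highest. Tgfbi, an extracellular matrix protein of monocytes and other cells, was at 42.1, 21.7, 98.4, 351.9 and 150.8 CPM in FrD and at 0, 0.1, 1.6, 47.5 and 0.4 in FrE. Apoc2, an apolipoprotein, was at 14.9 to 59.1 CPM in FrD with 4 counts in all of FrE (adjusted p = 0.00927). Rhd, a blood group protein of red cells, and Fcgr1, an Fc receptor of myeloid cells, picked out after their values were seen, ran from 0.1 to 136 and 3.2 to 107.7 CPM in FrD and stayed at or under 0.1 and 0.9 in FrE. They lie beside the marker sums given above, and the part of other cells in their fall was not tested. Of the 74 genes that fell, 11 had a mean under 3 CPM in FrE.

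The WT libraries give the same step without the mutation. Of 10186 genes tested there, 11 rose (0.108%) and 3 fell (0.0295%), 14 in all (0.137%). Among 9894 genes tested in both genotypes, 115 passed in the mutant, 11 in WT and 6 in both, in the same direction. Of the 115, 111 had the same sign in WT, against 59.5% of all genes tested in both. The 115 were picked for their step in the mutant, so these shares come from unlike sets of genes. The 4 that did not were Gsn, Prdx4, Puf60 and Hat1, which fell in the mutant and had WT fold changes of 0.48, 0.86, 0.21 and 0.05. The G1/S median was -2.23 in the mutant and -1.08 in WT, and the G2/M median -0.83 and -2.40. For class II the medians were 1.09 and 1.60, and for the surface genes 1.54 and 1.27. The WT libraries of FrD in mouse 3 and FrE in mouse 7 are of low complexity, with 26.7% and 28.1% of detected genes at 1 to 9 counts.

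The test of the difference in step, on all 20 libraries, passed for 0 of 11356 genes in edgeR (0%). An unadjusted p under 0.05 was found for 487. By DESeq2, 81 genes were called whose step was higher in the mutant and 174 whose step was lower. Leaving out mutant mouse 8 gave 1 gene in edgeR. Without the mice that hold a low-complexity library (3, 7 and 9), a choice made after seeing the data, edgeR called 6 genes, Atp1b1, Il2ra, Sec63, Arl5c, Il7r and Stambpl1, all with a higher step in the mutant.

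Several genes of low p for the difference had less RNA in WT FrE than in mutant FrE. Rag1 in WT stood at 222.2, 352.6, 228.3, 205 and 287.3 CPM in FrD and at 0, 7.7, 13.3, 4.6 and 0.9 in FrE of mice 1, 2, 3, 6 and 7. The lowest mutant FrE library, at 42 CPM, was above the highest WT FrE library, at 13.3. The WT step was -6.57 and the mutant step -0.95, and the difference of 5.65 did not pass in edgeR (adjusted p = 0.251, between 0.0594 and 0.939 over the other edgeR settings) and did in DESeq2 (adjusted p = 1.11e-06). Rag2 had 10.2 to 338.8 CPM in WT FrD and 0.2 to 10 in WT FrE, with a WT step of -5.62 and a difference of 5.13 (edgeR adjusted p = 0.519, DESeq2 7.11e-05). Il7r had 90.9 to 912.4 CPM in WT FrD and 3 to 57.9 in WT FrE, below all 5 mutant FrE libraries. Its difference was 3.33 (edgeR adjusted p = 0.599, 0.0335 without mice 3, 7 and 9, and DESeq2 0.000581). Myb, a transcription factor of dividing progenitors, was at 436.8 to 644.6 and 261.2 to 501.7 CPM in mutant FrD and FrE and at 493.7 to 674.2 and 85.4 to 193.8 in WT, a difference in step of 1.73 (edgeR adjusted p = 0.519, DESeq2 0.00298). Ms4a1 differed in the other fraction, with 0.4 to 20.8 CPM in mutant FrD and 114.1 to 586.8 in WT FrD. Its difference in step was 5.17 (edgeR adjusted p = 0.199, and 0.021 without mouse 8). In the other edgeR settings the adjusted p for Ms4a1 was between 0.101 and 0.684, and in DESeq2 it was 4.47e-08. Myc, a growth regulator, and Ccnd2 had mutant steps of 0.15 and 1.55 and WT steps of 5.03 and 5.57, with edgeR adjusted p = 0.841 for each difference. Psme4 and Dnajc7 had differences in step of 2.65 and 2.69 (edgeR adjusted p = 0.251 and 0.291, DESeq2 0.000158 and 0.000141). Genes of low p whose step was lower in the mutant were Anxa2, Polk, Pycr1, Itgb7, Tmtc3, Tor3a, Cfp and Ctla2a. None passed in edgeR on the 20 libraries, and DESeq2 called each. Anxa2 ran from 69.4 to 784.5 CPM in mutant FrD and from 0.7 to 71.2 in mutant FrE. In WT it ran from 15.3 to 108.1 and from 19.2 to 183.7.

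**Figure D5:**
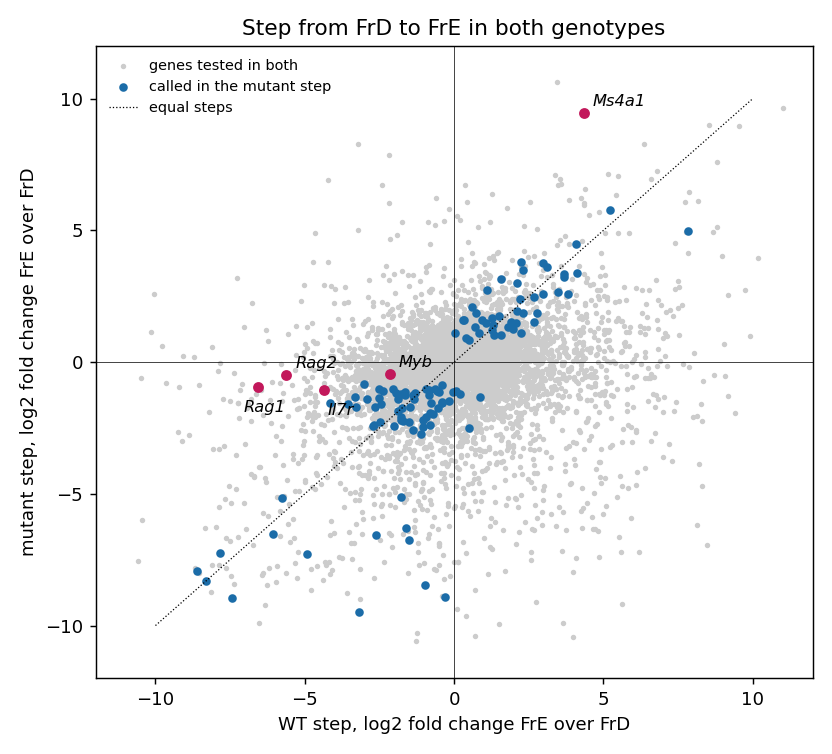
Fitted log2 fold change from FrD to FrE in WT (x axis) and mutant (y axis), 1 point per gene tested in both, with the genes called in the mutant step in blue, named genes of the difference in red and equal steps as a dotted line. Rag1 lies at -6.57 in WT and -0.95 in the mutant, and no difference in step passed in edgeR on the 20 libraries.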

How the data were processed

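Libraries were grouped by the genotype, fraction letter and mouse number of their titles. The values are raw counts of genes and ERCC spike-ins, as deposited by the authors. Per the submitters' processing notes the authors used HISAT2 2.1.0, featureCounts 1.4.6 of Subread and DESeq2 with build mm10. Annotation release and strand setting: not given in the sources used here. Reads of genes that overlap, or lie antisense to each other, may therefore be mixed. Of 21958 genes, 21728 matched GENCODE M21, whose coordinates are given.

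Genes were kept with at least the CPM of 10 counts in a library of median size (0.51) in 4 libraries and 15 counts in all. The filter asks for 4 libraries because 1 holds 42111 counts. Tests were two-sided quasi-likelihood tests in edgeR 4.0.16 (R 4.3.3, robust fit, TMM factors, mouse as a block). A call is an adjusted p (Benjamini-Hochberg) under 0.05. CPM leave the spike-ins out of the total, and log2 CPM differences per mouse use a pseudocount of 1. Errors are SE for fold changes and SD for levels. The difference in step is the genotype by fraction term over 20 libraries. The pairing comes from the animal. Deviations of same-mouse libraries correlated weakly, at 0.214, 0.021, -0.075, 0.056 and 0.076 in mice 4, 5, 8, 9 and 10, over 6841 genes. The highest correlation with another mouse was 0.072, 0.059, 0.075, 0.077 and 0.028, which is above the same-mouse value in mice 5, 8 and 9. Depth was 14499642 to 43372070 counts but for the library above. Amplified reads were counted, not molecules. Where donors are not named, p-values measure the spread between these mice. The method was tested on simulated data, where 5 of 9859 unchanged genes were called. Alternatives used DESeq2 1.42.0 and voom of limma 3.58.1 among others. Named genes are the 12 of lowest p in each direction, up to 8 called members of each list (or the 2 of lowest p), gate genes, the 8 of lowest p in each direction of the difference and the 6 most abundant called genes in each direction. The comparison, the lists and the rules were chosen with earlier results of these data known. Lists are described by counts and medians, without a set test.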

Additional observations from a re-analysis of the deposited data

Results flagged for a closer look

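Of 72 groups of 5 libraries examined, 5 held a library far from the other 4, where chance gives about 1 in 20. In FrE the total of mouse 9, 42111 counts, lay far below the others (18920916 to 20678002), as did its 7365 genes detected (10486 to 11068 in the others). Tgfbi stood at 47.5 CPM in FrE of mouse 9, which is 2 counts, and between 0 and 1.6 in the other FrE libraries. H2-DMb2 in FrE of mouse 5 was 157.1 CPM against 278.2 to 318.2 in the others. Tifa in FrE of mouse 4 was 1704 CPM against 668 to 957.1.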

How the results depend on the processing

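Against 45 genes higher and 74 lower, dropping the replicate block gave 39 and 45 (67 of the 119 calls remained). Leaving out both libraries of mouse 9 gave 28 and 25. Leaving out only its FrE library, with the replicate block dropped too, gave 38 and 41. Leaving out each mouse in turn gave 9 to 53 genes higher and 11 to 136 lower. DESeq2 gave 254 and 605, voom with quality weights 150 and 149, spike-in scaling 9 and 16, the joint fit of 20 libraries 9 and 0, and mice 4, 8 and 10 alone (added after seeing the data) 26 and 34. Voom gave the library of 42111 counts a weight of 11.3, against 0.524 to 1.14 for the others. RLE factors, the default filter and no filter gave 46 to 53 higher and 69 to 81 lower. No call reversed. DESeq2 called 28 G1/S, 7 class II and 9 G2/M genes against 7, 4 and 2, and the joint fit 0, 2 and 0. The difference in step was 0 genes in edgeR, 1 without mouse 8, 6 without low-complexity libraries and 255 in DESeq2; it was 0 without the block, with RLE factors and without any other single mouse. The causes were not tested. Of the 56 calls picked by the naming rule, 18 to 52 passed as each mouse was left out. With a library at 23.7 CPM per count, levels below 71.2 CPM rest there on fewer than 3 counts.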
